A study of Rattus norvegicus with 6 samples.

Results

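The ISG15 conjugation and deconjugation machinery was followed in rat atrial fibroblasts as 5 genes, named by function: Isg15, Uba7, Ube2l6, Herc6 and Usp18. These were 5 of the 40154 genes in the deposited table, and all 5 were among the 14852 genes with enough counts to be tested. The 5 genes and the gene lists below were chosen with earlier results of these data known. The cells were taken from the atria of Sprague-Dawley rats aged 1 to 3 days by preplating, which lets non-myocytes attach first and leaves the myocytes behind, and polyA RNA was sequenced. One group received the control siRNA si-NC and the other si-GPD1L, an siRNA against Gpd1l, for 24 h, with 3 libraries in each group, and the labels give all 6 libraries the treatment "Atrial differentiation". No untransfected cells were analysed here. The sources do not say whether the digit in the si-GPD1L names numbers replicates or different siRNAs, and nothing says that the libraries came from separate cultures or animals, so p-values measure only the spread between these libraries, which may be technical.

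ISG15 is a small protein built of tandem ubiquitin-like domains whose gene is induced by type I interferon. It is attached to other proteins by a cascade like that of ubiquitin: the E1 enzyme UBA7 activates it, the E2 enzyme UBE2L6 carries it, and an E3 ligase, mainly HERC6 in mice, joins it to the target. USP18 is the protease that takes ISG15 off again, and it also binds the interferon receptor chain IFNAR2 together with STAT2 and dampens interferon signalling. The comparison asked how far each step of this cycle differed at the RNA level between si-GPD1L and si-NC.

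The library totals ran from 16892255 to 20149732 counts, and TMM factors from 0.994 to 1.01. Gpd1l itself, the siRNA target, had 262, 332 and 313 normalized counts (counts scaled to the mean library size) in si-NC replicates 1 to 3. The libraries labelled si-GPD1L had 220, 208 and 302. Replicate 3 of si-GPD1L lay within the si-NC range, and the log2 fold change of −0.31 (SE 0.15) did not pass the test (adjusted p = 0.234). All 11 listed fibroblast markers, among them Col1a1, Dcn and Pdgfra, were tested, and none was at 0. Every si-GPD1L library showed the rise of the ISG15 genes described next, and without replicate 3 the log2 fold changes were 6.10 for Isg15, 4.38 for Uba7, 1.68 for Ube2l6, 3.73 for Herc6 and 8.43 for Usp18.

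All 5 genes of the machinery rose in si-GPD1L. The modifier Isg15 rose 65.0-fold, the E1 Uba7 20.5-fold, the E2 Ube2l6 3.26-fold, the E3 Herc6 13.0-fold and the deconjugase Usp18 332-fold. Each passed an adjusted p under 0.05 with a log2 fold change over 1, a call that 1.48% of all tested genes met in the higher direction and 0.135% (log2 fold change under −1) in the lower. For each of the 5 the lowest si-GPD1L library lay above the highest si-NC library, as it did for 15.1% of all genes tested. Together the 5 genes took 0.00131 to 0.00153% of the counts of a si-NC library and 0.0210 to 0.0254% of those of a si-GPD1L library. In these bulk samples, a gene made by more cells and a gene made at a higher level per cell cannot be told apart.

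**Figure D1:**
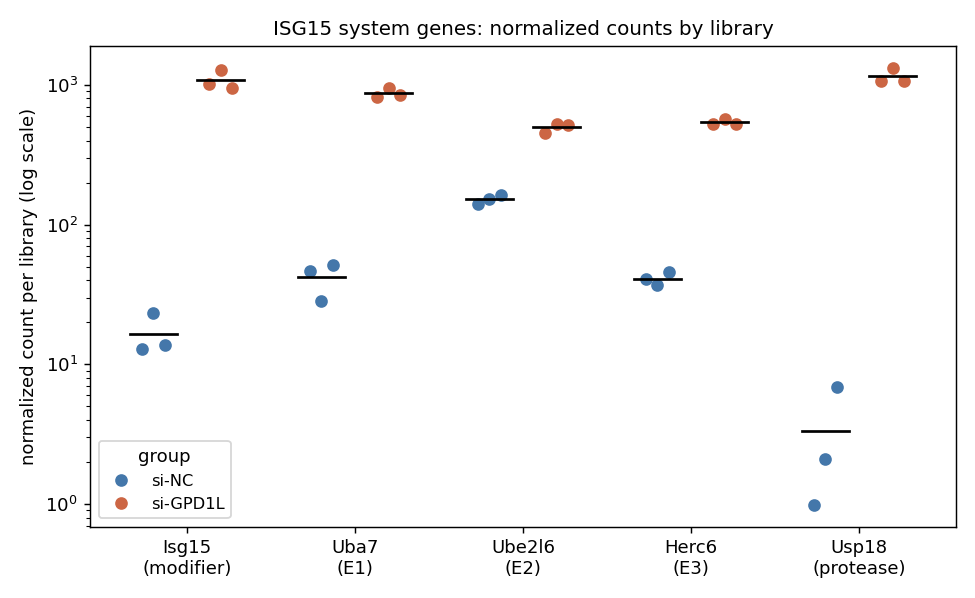
Normalized counts (log scale) of the 5 genes in each library, with si-NC in blue, si-GPD1L in red and black bars at the group means. The groups are apart for every gene, by the least for Ube2l6 (152 against 497) and by the most for Usp18 (3.31 against 1153).

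Promoter sequence was looked up in RefSeq (build GRCr8), whose table held a promoter for 3 of the 5 genes, Uba7, Ube2l6 and Herc6, and none for Isg15 and Usp18. The 100 bases just before the start of each of the 3 genes are shown because these genes moved together, at chr8:117543802-117543901 on the plus strand for Uba7, chr3:90279605-90279704 on the plus strand for Ube2l6 and chr4:88896994-88897093 on the minus strand for Herc6. Each is written 5′ to 3′ along the gene.
Uba7: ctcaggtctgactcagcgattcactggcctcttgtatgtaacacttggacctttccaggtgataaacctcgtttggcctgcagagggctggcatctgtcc
Ube2l6: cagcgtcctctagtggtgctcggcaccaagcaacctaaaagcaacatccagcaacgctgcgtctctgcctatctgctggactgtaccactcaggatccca
Herc6: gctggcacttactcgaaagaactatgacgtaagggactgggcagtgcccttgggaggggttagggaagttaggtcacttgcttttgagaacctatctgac

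Motifs known from interferon-responsive genes were searched on both strands from 250 bases before to 50 bases after each start. The core of the interferon-stimulated response element (ISRE), GAAANNGAA, stood in 9.71% of the 33469 promoters in the table, the interferon regulatory factor (IRF) site AANNGAAA in 26.4%, and the gamma-activated site (GAS) TTCNNNGAA in 8.87%. The ISRE core and the IRF site can overlap. The Uba7 window held 1 IRF site, on the minus strand and after the start, shown in capitals in its surroundings at chr8:117543925-117543951.
Uba7 IRF site: ccaactctgtctagTTTCACTTttggt
The windows of Ube2l6 and Herc6 held none of the 3 sets of letters, which says only that these letters are not in these windows.

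Isg15, the modifier itself (NCBI gene 298693, chr5:173624862-173629124 on the minus strand, build rn6), had 13, 22 and 14 counts in si-NC replicates 1 to 3 and 926, 1402 and 947 in si-GPD1L. Scaled to library size these were 16.6 ± 5.80 and 1076 ± 174 normalized counts (SD, n = 3). Isg15 was thus close to silent in every control library and well expressed in every si-GPD1L library. The log2 fold change was 6.02 (SE 0.19, 95% interval 5.60 to 6.44, adjusted p = 2.82e-10), the 21st largest rise of all genes tested. The pooled counts, 49 against 3275, gave a ratio of 66.0 with an exact counting interval of 49.8 to 89.4.

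The reads of Isg15 fell differently on its transcript models in the 2 groups. The transcript table holds a short model of 663 nt and a long model of 1290 nt, and the gene count equalled the long model's count in every library. Reads counted on the short model numbered 8, 13 and 6 in si-NC and 918, 1384 and 941 in si-GPD1L. Reads that the long model had beyond the short one numbered 5, 9 and 8 in si-NC and 8, 18 and 6 in si-GPD1L, so their ranges overlapped. As a share of the Isg15 counts they made up 38.5% (exact Clopper-Pearson 95% interval 13.9 to 68.4), 40.9% (20.7 to 63.6) and 57.1% (28.9 to 82.3) in si-NC, against 0.864% (0.374 to 1.70), 1.28% (0.763 to 2.02) and 0.634% (0.233 to 1.37) in si-GPD1L. The shares did not overlap between the groups, and the exact permutation test (two-sided) gave p = 0.10, the smallest value that 3 against 3 libraries allow. These intervals cover counting error only.

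On the short model alone, Isg15 went from 9.17 ± 4.10 to 1066 ± 169 normalized counts (exact permutation p = 0.10, n = 3), a pooled ratio of 119 (81.4 to 180). The reads outside the short model went from 7.42 ± 2.31 to 10.4 ± 5.37 (exact permutation p = 0.50, n = 3), a pooled ratio of 1.44 (0.809 to 2.59). With Isg15 counted on its short model, a choice made after the data were seen, the log2 fold change was 6.86 in place of 6.02 (adjusted p = 2.17e-10). The 65.0-fold rise therefore holds the 2 kinds of read together, with a control level of which 45.5% ± 10.2 (SD, n = 3) came from reads outside the short model. The RefSeq table of build GRCr8 lists 1 transcript for Isg15, under the accession of the short model. The long model, on which the 65.0-fold rise rests, is not listed there.

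**Figure D2:**
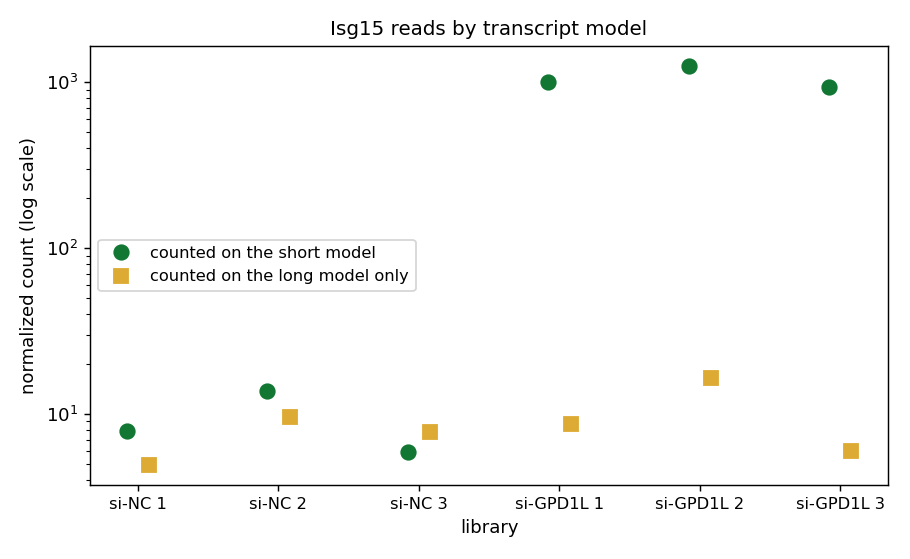
Normalized counts (log scale) of Isg15 in each library, split into reads counted on the short transcript model (green circles) and reads counted on the long model only (yellow squares). Short-model reads rose from a mean of 9.17 to 1066 while long-only reads went from 7.42 to 10.4.

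Uba7, the E1 that activates ISG15 (NCBI gene 301000, chr8:116754178-116766765 on the plus strand, rn6), had 47, 27 and 53 counts in si-NC and 750, 1053 and 843 in si-GPD1L. Its normalized counts were 42.3 ± 12.1 and 872 ± 74.5 (n = 3). Every si-GPD1L library was far above every control, with a log2 fold change of 4.36 (SE 0.16, 95% interval 4.02 to 4.69, adjusted p = 8.23e-10). The 5 transcript models listed for Uba7 each carried 66.9 to 92.1% of its pooled gene counts in the controls, and 73.9 to 97.2% after si-GPD1L. They share most of their reads, so no single model can be read as the one that rose. Only 1 of these 5 models is listed in RefSeq of build GRCr8, from which the promoter was taken. Fam212a overlaps Uba7 on the opposite strand, and since the strand setting of the counting is not stated, reads of these genes might not be told apart. Fam212a had 59, 61 and 59 counts in si-NC and 84, 78 and 97 in si-GPD1L (0.52 on the log2 scale, adjusted p = 0.119). These were far fewer than Uba7 had in si-GPD1L, but more than it had in each si-NC library. Whether the control level of Uba7, and with it the size of its fold change, is affected was not tested.

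Ube2l6, the E2 that carries ISG15 (NCBI gene 295704, chr3:72191533-72206190 on the plus strand, rn6), was the one step already clearly present in the control cells. It had 143, 143 and 168 counts in si-NC and 412, 577 and 518 in si-GPD1L, or 152 ± 11.3 and 497 ± 41.5 normalized counts (n = 3). Its log2 fold change of 1.71 (SE 0.11, 95% interval 1.47 to 1.94, adjusted p = 3.26e-07) was the smallest of the 5 but well outside the spread between libraries. The replicate spread of Ube2l6 in si-NC, a coefficient of variation of 7.44%, was also the smallest of the 5. Of its 2 transcript models, the longer carried 99.8% of the pooled gene counts in si-NC and 99.4% in si-GPD1L, and the shorter 73.8% and 76.7%.

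Herc6, the ISG15 E3 ligase of mice (NCBI gene 362376, chr4:88606851-88649424 on the minus strand, rn6), had 41, 35 and 47 counts in si-NC and 479, 630 and 522 in si-GPD1L. Its normalized counts were 41.1 ± 4.45 and 539 ± 29.4 (n = 3). Within si-GPD1L it was the most even of the 5 genes, with a coefficient of variation of 5.46%. The log2 fold change was 3.70 (SE 0.12, 95% interval 3.43 to 3.98, adjusted p = 4.63e-10). A single transcript model carried 99.2% of its counts in si-NC and 98.2% in si-GPD1L. RefSeq of build GRCr8, from which the promoter was taken, does not list this model.

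Usp18, the protease that removes ISG15 (NCBI gene 312688, chr4:153812312-153834374 on the plus strand, rn6), had 1, 2 and 7 counts in si-NC and 980, 1459 and 1068 in si-GPD1L. Its normalized counts were 3.31 ± 3.10 and 1153 ± 149 (n = 3). The control level thus rested on a few reads, most of them in replicate 3, while all si-GPD1L libraries were high. Usp18 had enough counts to be tested only through the si-GPD1L libraries, the group where it was high. The log2 fold change of 8.37 (SE 0.24, 95% interval 7.85 to 8.90, adjusted p = 1.73e-10) was the 3rd largest rise of all genes tested. The pooled counts of 10 against 3507 gave a ratio of 346, with a counting interval of 188 to 723. The size of the fold moved with the control libraries: without si-NC replicate 3 the log2 fold change was 9.44, and without si-NC replicate 1 it was 7.94. Both values stayed far past the threshold, so the direction did not rest on these libraries.

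Among the si-GPD1L libraries, replicate 2 had the highest normalized count of each of the 5 genes. The gap was small for Ube2l6 (524 against 517 in replicate 3) and wider for Usp18 (1326 against 1068 in replicate 1) and Isg15 (1274 against 1010 in replicate 1). No si-NC library was highest for all 5: replicate 2 was highest for Isg15 and lowest for Uba7 and Herc6, and replicate 3 was highest for the other 4.

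Levels of different genes were compared per transcript length, as TPM. In si-NC the order was Ube2l6 (12.9 ± 1.53 TPM), Isg15 (1.65 ± 0.614), Uba7 (1.43 ± 0.416), Herc6 (1.14 ± 0.151) and Usp18 (0.272 ± 0.261), n = 3 each. Ube2l6 stood above the others in every library and Usp18 below them, while the ranges of Isg15, Uba7 and Herc6 overlapped. In si-GPD1L the order was Isg15 (113 ± 18.8 TPM), Usp18 (98.3 ± 13.2), Ube2l6 (44.4 ± 3.95), Uba7 (31.2 ± 2.83) and Herc6 (15.7 ± 0.930). The ranges of Isg15 (99.5 to 135) and Usp18 (90.4 to 113) overlapped, and the other neighbours in this order did not. The protease gene thus moved from the last place in the order to the second, and the E2 from the first place to the third.

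The gain in TPM was 112 for Isg15, 98.0 for Usp18, 31.5 for Ube2l6, 29.8 for Uba7 and 14.6 for Herc6. Ube2l6, with the smallest fold, gained about as much as Uba7 from a higher starting level. Isg15 levels depended on the model: per 663 nt and short-model reads, Isg15 stood at 1.77 ± 0.820 TPM in si-NC and 218 ± 35.4 in si-GPD1L, where its lowest library (192) was above the highest of Usp18.

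**Figure D3:**
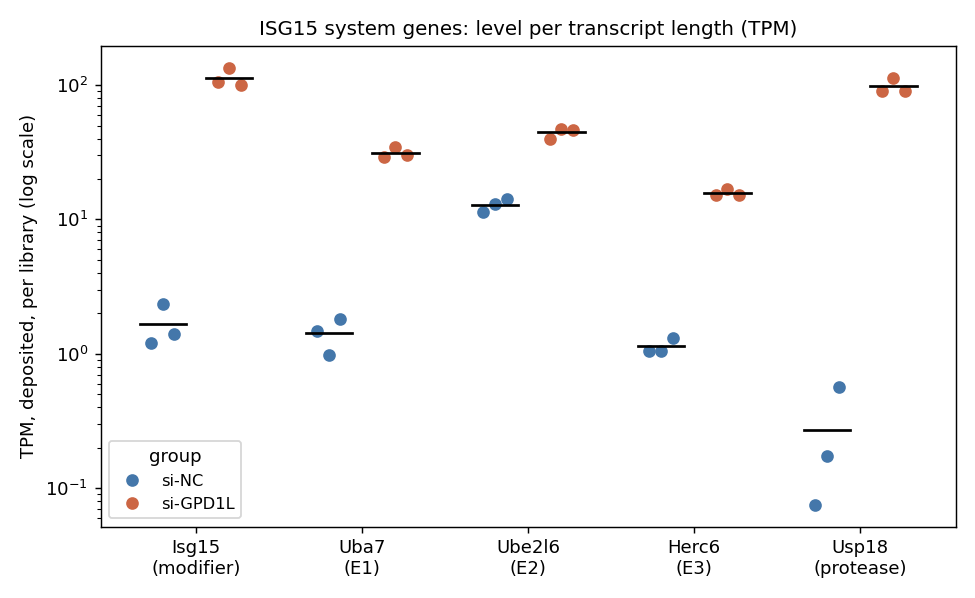
Deposited TPM (log scale), the count per transcript length scaled to a common sum, of the 5 genes in each library, with bars at the group means. Ube2l6 leads in si-NC at 12.9 TPM, and Isg15 (113) and Usp18 (98.3) lead in si-GPD1L.

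The 5 genes did not rise by one common factor. The log2 ratio of 2 members within a library was compared between groups for all 10 pairs, with 0.5 added to each normalized count. The ratio of Isg15 to Usp18, modifier to protease, went from a mean of 2.43 in si-NC to −0.10 in si-GPD1L, and the ratio of Isg15 to its E1 Uba7 from −1.33 to 0.29. The ratio of the E2 Ube2l6 to Usp18 changed most, from 5.64 to −1.21, and that of Uba7 to Herc6 least, from near 0 (−0.00078) to 0.69. For none of the 10 pairs did the groups overlap. Each exact permutation test (two-sided, 3 against 3 libraries) gave p = 0.10, also after adjustment over the 10 pairs, which is the smallest p this design allows, so none could pass the threshold. Without si-NC replicate 3 the change in the Isg15 to Usp18 ratio was −3.28 in place of −2.54. The 95% intervals of the 5 fold changes, each from the fit over all genes, did not overlap each other.

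ISG15 partners were taken as 14 tested genes that encode other ISG15 proteases, ligases, receptors or binding proteins, and a 15th, Hdac6, had too few counts to be tested (from 1 to 6 in a library). Of the 14, 2 rose past both thresholds, beside 1.48% of all genes tested, and none fell. The median log2 fold change was 0.0079, beside −0.0049 over all genes tested. Stat2, which brings USP18 to the interferon receptor, rose to 4377 ± 358 normalized counts from 963 ± 23.8 (log2 fold change 2.18, SE 0.079, adjusted p = 8.77e-10). Trim25, a ubiquitin ligase that is also modified by ISG15 and acts in RIG-I signalling, rose from 411 ± 90.2 to 1403 ± 87.0 (1.77, SE 0.13, adjusted p = 1.21e-06). Other proteases that can act on ISG15 did not pass the test, with log2 fold changes of −0.15 for Usp16, −0.053 for Usp21, 0.027 for Usp2, 0.11 for Usp5, −0.18 for Usp13 and −0.16 for Usp14. Ifnar2, the receptor chain that USP18 binds, stood at −0.011. Skp2, a component of the ligase that degrades USP18, stood at 0.32 (adjusted p = 0.141) and the ligase Arih1 at −0.13 (adjusted p = 0.299).

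Of 17 listed proteins known to carry ISG15, the genes of 5 rose past both thresholds, beside 1.48% of all genes tested, and none fell. Since the lists were chosen with earlier results of these data known, such a count may follow from the choice. The median log2 fold change of the 17 was 0.048. The 4 described here belong to antiviral defence. Mx1, a dynamin-like antiviral GTPase, had 6.45 ± 2.66 normalized counts in the controls and rose to 2019 ± 382, with a log2 fold change of 8.28. Like Usp18, it had enough counts to be tested only through si-GPD1L. Ddx58, which encodes the RNA sensor RIG-I, rose from 265 ± 24.9 to 2185 ± 184 (3.04), and Ifih1, which encodes the sensor MDA5, from 212 ± 3.32 to 1345 ± 79.9 (2.67). The kinase gene Eif2ak2 (PKR) rose from 787 ± 96.2 to 3098 ± 214 (1.98). The adjusted p of these 4 ran from 1.14e-10 (Mx1) to 1.40e-08 (Eif2ak2). The other 12, which include Irf3, Jak1, Pcna, Tsg101 and Becn1, did not pass at any fold change, and the lowest value was −0.32 (Ube2e1).

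Relatives of these genes in the wider ubiquitin-like system did not pass the thresholds that all 5 passed. The list held other ubiquitin-like modifiers, E1 and E2 enzymes, HECT ligases and USP proteases, 121 of 130 of them tested. None passed both thresholds, beside 1.48% of all genes tested in the higher direction and 0.135% in the lower. With shares this small, a count of none in this list is near that of all genes. At an unadjusted p under 0.05 there were 25, a mark that 22.4% of all genes tested passed in either direction. At an adjusted p under 0.05 with any fold change, 3 were higher and 3 lower, against 4.03% of all tested genes higher and 2.33% lower. Among the higher were the HECT ligase Wwp2 (log2 fold change 0.34, adjusted p = 0.0463) and the protease Usp25 (0.44, 0.00975). The 3 lower were the modifier Ubl5 (−0.41, 0.0487), the E2 Ube2d1 (−0.45, 0.0416) and the protease Usp53 (−0.38, 0.0461). The median log2 fold change of the 121 was 0.028.

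The closest relatives gave values near 0. Uba1, the E1 of ubiquitin, had a log2 fold change of 0.12 (95% interval −0.028 to 0.27), Ube2l3, the closest E2 relative of Ube2l6, −0.040 (−0.21 to 0.13), and Herc3, a HERC ligase gene, −0.12 (−0.29 to 0.056). The ubiquitin gene Ubb stood at 0.074 (adjusted p = 0.574). The intervals of Uba1, Ube2l3 and Herc3 leave room for a small change, but not for one of the size seen in Uba7, Ube2l6 or Herc6.

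**Figure D4:**
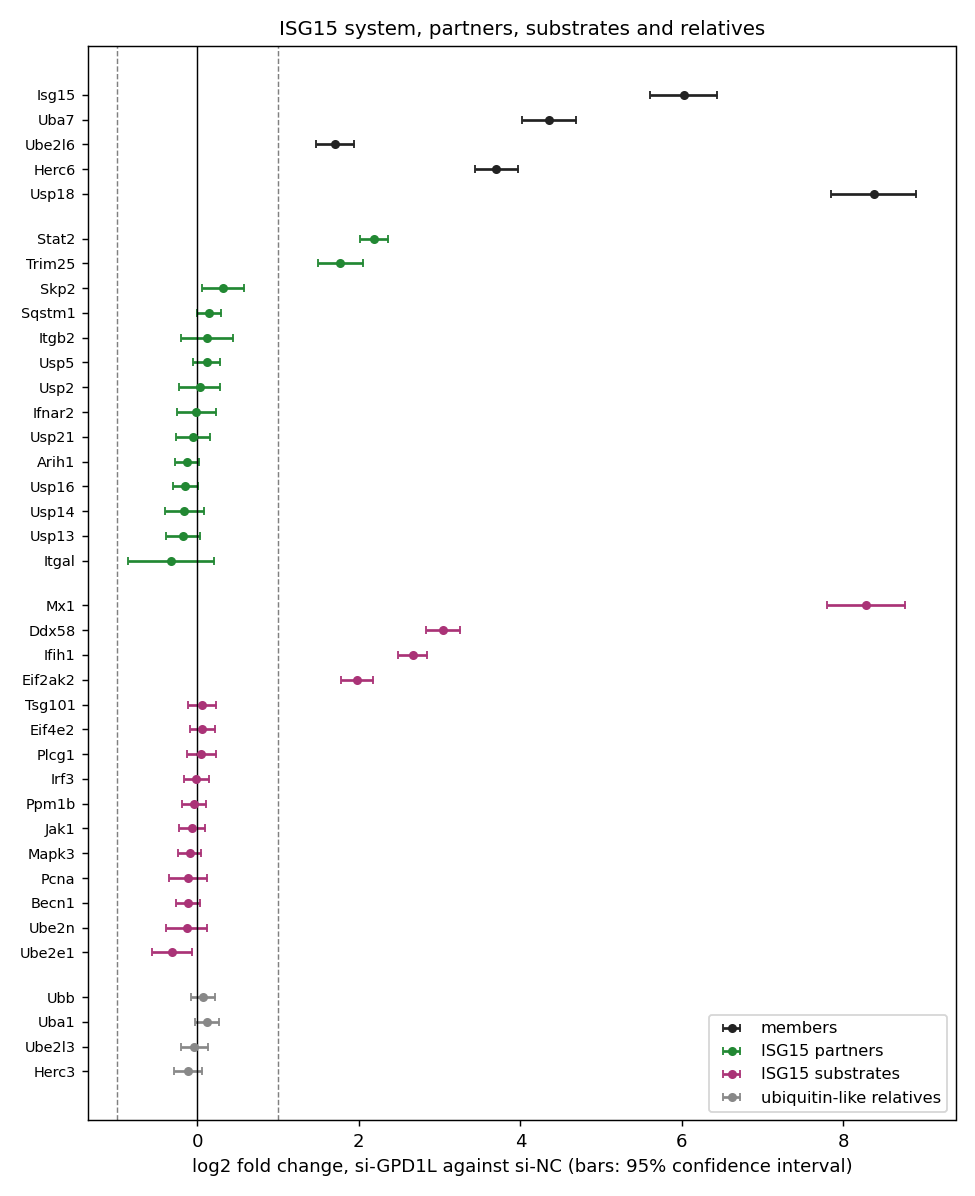
Log2 fold changes (si-GPD1L against si-NC) with 95% intervals for the 5 genes of the machinery (black), the ISG15 partners (green), the substrates (purple) and the relatives (grey), with dashed lines at −1 and 1. The 5 genes lie between 1.71 and 8.37, with 2 partners and 4 of the substrates drawn beyond 1 and the relatives near 0.

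Among 10 listed genes of interferon signalling, 9 were tested and 4 rose past both thresholds, beside 1.48% of all genes tested. Among the 4 were Irf7, with the largest rise (69.6 ± 9.25 to 4082 ± 784 normalized counts, log2 fold change 5.87), Stat2 and Irf9 (1.81). Ifnb1, which encodes interferon beta, had 0 counts in every library, and 0 counts in a library allow up to 3.

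For each of the 5 genes, the 3 genes with the most similar pattern were found by the Euclidean distance between centred log2 CPM values over the 6 libraries, among the 11883 genes whose mean normalized count was 50 or more. With 2 groups of 3 libraries, this distance depends mainly on the size of the fold change. None of these genes was another of the 5, whose fold changes differ from each other. Some of them reached the mean of 50 only through si-GPD1L, such as Oas2 (means of 1.03 in si-NC and 209 in si-GPD1L). Nearest to Isg15 were Irf7 (distance 0.447), Oas1b (0.695) and Oas2 (0.801), the last ones being 2-5A synthetase genes. Nearest to Uba7 were LOC689130 (0.523), Phf11 (0.546) and the guanylate-binding protein gene Gbp1 (0.550). Nearest to Ube2l6 were Pml (0.227), which encodes the scaffold of PML nuclear bodies, Slfn2 (0.230) and Parp10 (0.231), and nearest to Herc6 were the class Ib MHC gene RT1-S3 (0.240) and the immunity-related GTPase genes Ifi47 (0.280) and Irgm2 (0.350). Nearest to Usp18 were Oas1a (1.34), Mx1 (1.42) and LOC100911190 (1.42), at larger distances than for the others. The few si-NC counts of Usp18 lay −0.68, −0.21 and 0.89 from their group mean in log2 CPM, and such spread adds to its distances.

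The tested genes next to the 5 on the chromosome had smaller fold changes. Agrn, which encodes agrin and lies 2.05 kb from Isg15 on the same strand, had 1553 ± 248 normalized counts in si-NC and 2864 ± 102 in si-GPD1L, which is 0.88 on the log2 scale (SE 0.10, adjusted p = 1.53e-04). Serping1, the C1 inhibitor gene 20.4 kb from Ube2l6 on the opposite strand, rose by a log2 fold change of 0.73 (adjusted p = 0.00614). Perm1 next to Isg15 (0.53, adjusted p = 0.563), Traip next to Uba7 (0.46, adjusted p = 0.262) and Pigy next to Herc6 (−0.52, adjusted p = 0.0619) did not pass the test. Cdhr4, Smtnl1, LOC500148, Tuba8 and LOC102553072 had too few counts, so neither neighbour of Usp18 could be tested. The largest value next to any of the 5, 0.88 for Agrn, was below the smallest of the 5, 1.71 for Ube2l6.

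**Figure D5:**
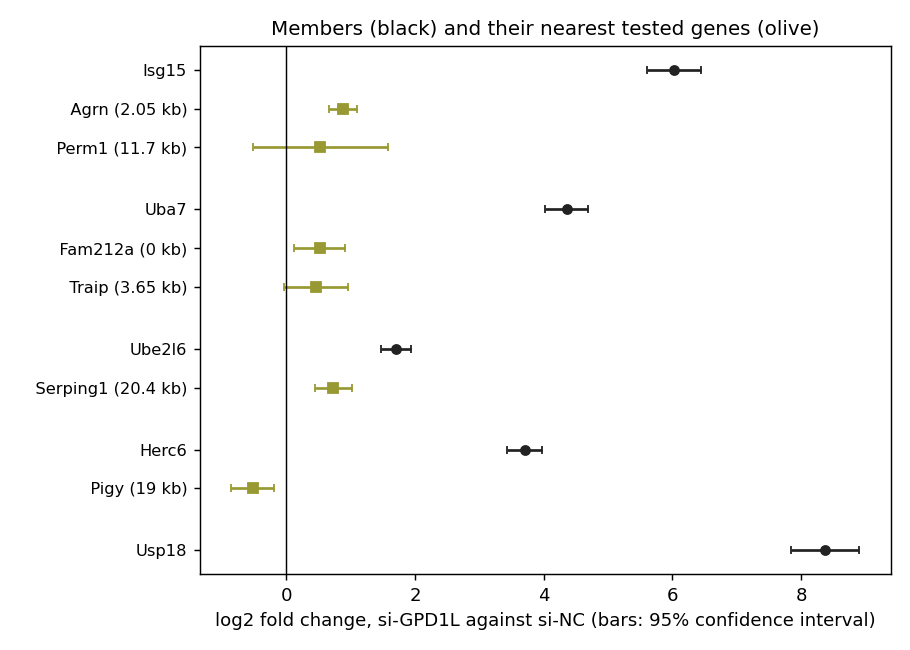
Log2 fold changes (si-GPD1L against si-NC) with 95% intervals for the 5 genes (black) and the tested genes nearest to each on the chromosome (olive, with the distance in kb; 0 means overlapping). Agrn, at 0.88, is the highest of the neighbours and Ube2l6, at 1.71, the lowest of the 5.

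Markers of other heart cells were summed beside these results. All 16 macrophage markers were tested and none passed the test, with 1 at an unadjusted p under 0.05 by edgeR, beside 22.4% of all genes tested; their summed normalized counts spanned 3214 to 3480 in the controls and 2732 to 3958 in si-GPD1L. Of 12 endothelial markers, 11 were tested and 5 were higher at an adjusted p under 0.05, beside 4.03% of all genes tested. Among these 5 were Plvap (log2 fold change 1.44), Cdh5 (1.07) and Erg (1.00). The endothelial sum spanned 1990 to 2468 in the controls and 2774 to 2883 in si-GPD1L. The 12 cardiomyocyte markers summed to 35609 to 37716 in the controls and 32140 to 35406 in si-GPD1L. Only Pln (−0.44) passed an adjusted p under 0.05, a mark that 2.33% of all genes tested met in the lower direction. The fibroblast markers summed to 1285940 to 1588800 and 1487880 to 1578950. Most of this sum came from Col1a1 (mean 762740 in si-NC) and Col3a1 (548698), so it says little about the other markers. Lum (−0.77) and Dcn (−0.66) were lower at an adjusted p under 0.05, beside 2.33% of all genes tested, and 0 markers were higher. Without overlap between the groups, 2 of the 11 were lower and 2 higher. The groups did not overlap in the endothelial sum, which was higher in si-GPD1L. Nor did they in the cardiomyocyte sum, which was lower by a narrow gap (35406 against 35609). Gene by gene, 7 of the 11 endothelial markers were higher without overlap and 0 lower. Of the 12 cardiomyocyte markers, 4 were lower without overlap and 1 higher. Over all 14852 genes tested, 2246 were higher and 2059 lower without overlap. The part of either sum in the rise of the ISG15 genes was not tested.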

How the data were processed

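RNA of rat atrial fibroblasts was selected for polyA and sequenced as paired-end reads (6 libraries). The submitters' processing notes name bcl2fastq, HISAT2 2.1.0, HTSeq 0.12.4 and the build rn6, and no source used here states the strand setting. The authors deposited raw read counts and TPM values for 40154 genes and counts for 55760 transcript models. The deposited TPM equals counts over gene length, scaled to a common sum, and was used only to set levels of genes side by side. Deposited columns of the authors' own comparison (fold changes and p-values) were not used.

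Counts were compared with edgeR 4.0.16 in R 4.3.3 (filterByExpr, TMM, quasi-likelihood F test, Benjamini-Hochberg adjustment over 14852 genes), and genes were called where the adjusted p was under 0.05 with a log2 fold change beyond 1 in either direction. Standard errors and 95% intervals come from the same fit. Ratios and shares were compared by exact permutation. Groups and replicate numbers came from the labels. The members and gene lists were chosen with earlier results of these data known. Genes named were the 5 members, Gpd1l, the partner and substrate lists and up to 3 genes of each other list by adjusted p. Also named were some further fibroblast markers, close relatives, the nearest genes on the chromosome and the 3 genes most alike in pattern. Some genes that met this rule are not reported here. The Usp gene closest to Usp18 in protein sequence was not looked up, since no protein table was used here. Each library differed from the others of its group by more than sampling noise. Alternatives were DESeq2 1.42.0 size factors and Wald test, upper-quartile factors, edgeR's exact test, other filters, summed transcript counts, a replicate block and each library left out. The main fit was tested on simulated counts, and the other steps were not.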

Additional observations from a re-analysis of the deposited data

How the results depend on the processing

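All 70 fold changes of the 5 genes recomputed under alternatives kept their direction and passed the threshold. The 70 recomputed ratios between members kept their direction, but in a design of this size their test could not pass. Among the counts of called genes, the one that moved by over 1.5 times was that of ubiquitin-like relatives, which went from 0 to 6 when the fold change was not limited. With each library left out in turn, log2 fold changes spanned 5.87 to 6.33 for Isg15, 4.15 to 4.52 for Uba7, 1.66 to 1.77 for Ube2l6, 3.64 to 3.79 for Herc6 and 7.94 to 9.44 for Usp18. The largest adjusted p over all alternatives was 7.09e-08 for Isg15, 6.92e-07 for Uba7, 1.27e-05 for Ube2l6, 1.38e-07 for Herc6 and 7.09e-08 for Usp18. With at least 10 counts required in every library, Usp18 and Mx1 were left out by the filter, and the other 4 members and 4 substrates stayed called. The number of genes called among all tested was 240, against 319 by the exact test, 359 with no filter, 164 with at least 10 counts in every library and 185 to 274 with 1 library left out. With the replicate number as a block it was 223, all 5 members stayed called, and the log2 fold changes were 6.02 for Isg15 and 8.37 for Usp18. Same-numbered libraries did not deviate together (correlations −0.012, −0.0059 and 0.043), so the numbers were not read as pairs. Depth limits the controls most: Usp18 had 10 counts in all 3 si-NC libraries together, so the size of its fold is less certain than its direction.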
